A study of Mus musculus with 8 samples.

Results

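The choroid plexus is a sheet of epithelium that hangs in the ventricles of the brain, makes the cerebrospinal fluid and secretes carrier proteins and growth factors into it. The genes described here are 9 known for their expression in this epithelium, *Ttr*, *Enpp2*, *Folr1*, *Aqp1*, *Clic6*, *Slc4a5*, *Kl*, *F5* and *Otx2*. All probes of the arrays that carry one of these names were taken, which gave 12 of the 41174 probes and 8 of the 9 genes, of 27962 names on the arrays, 4 of them with several probes. No probe is named *Slc4a5*, and 2 probes that carry an older name of this gene, *C330016K18Rik*, are described apart and are not counted among the 12.

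The arrays measured RNA from the right hemisphere, without olfactory bulb and cerebellum, of male C57BL/6J mice 8 to 12 weeks old. All mice had surgery and an injection into a ventricle, on the left side, so the saline groups were injected too. The surgery was PMCAO, the permanent occlusion of the right middle cerebral artery with a filament, or a sham operation, and the injection was 1 µl of 0.9% saline or the same volume with 1 pmol PACAP38, a neuropeptide. Brains were sampled at 6 h or 24 h, which makes 8 groups, each of them 1 pool of the RNA of 3 mice: sham with saline, sham with PACAP38, PMCAO with saline and PMCAO with PACAP38 at each time. The occluded mice were chosen by their neurological grade, and the hemisphere holds infarct core, penumbra and unaffected tissue together.

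The epithelium moves water, ions and nutrients from blood to cerebrospinal fluid, and these genes cover its secreted proteins, its transporters, a coreceptor and a factor that keeps its identity. *Ttr* encodes transthyretin, the carrier of thyroid hormone and retinol-binding protein, and *Enpp2* encodes autotaxin, a secreted enzyme that makes lysophosphatidic acid. *Folr1* encodes a folate receptor that carries folate toward the cerebrospinal fluid, *Aqp1* a water channel of the apical membrane, *Clic6* a member of the chloride intracellular channel family and *Slc4a5* a sodium bicarbonate cotransporter. *Kl* encodes Klotho, a coreceptor for FGF23 that is also shed, *F5* coagulation factor V, and *Otx2* a homeobox transcription factor on which the choroid plexus depends. Several are also made elsewhere, such as *Enpp2* in oligodendrocytes, *Aqp1* in red blood cells and *F5* in liver, so their RNA in a hemisphere need not come from this epithelium alone. In a hemisphere, fewer choroid plexus cells and less RNA per cell cannot be told apart, and neither can a different amount of choroid plexus taken at dissection.

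The probes are oligonucleotides of 60 bases that differ in their content of G and C, and this difference bears on the values at 6 h. The first 30 bases of 4 probes are printed 5′ to 3′ with G and C in capitals, from the probe poorest in G and C to the richest.
Aqp1: CtGtGtatGtttCtttGCaattGaatttCa
Otx2: aGatCattGGtttCCtGatttGCaaatGat
Kl: tGaGtGGtCttattGataaCCCtGataCCa
Folr1: tGatCaGCtGaGttCCtGttttaCCttCaG
Over all 60 bases the share of G and C was 30% for *Aqp1*, 35% for *Otx2*, 43.3% for *Kl* and 53.3% for *Folr1*. The remaining brightest probes, those of *Clic6* (35%), *Ttr* (38.3%), *F5* (40%) and *Enpp2* (41.7%), lay between *Aqp1* and *Kl*. The array files place the *Aqp1* probe at chr6:55311856-55311915 on the plus strand and the *Otx2* probe at chr14:43989807-43989866 on the minus strand. They place the *Kl* probe at chr5:149925549-149925608 on the plus strand and the *Folr1* probe at chr7:97904661-97904720 on the minus strand, all on build mm7. The *Clic6* probe is at chr16:92595284-92595343 (plus), the *Enpp2* probe at chr15:54899174-54899231 (minus) and the *F5* probe at chr1:164176135-164178323 (plus), a span of 2189 bases for a probe of 60. No gene annotation of that build was used here, so whether a probe lies in coding sequence or in an untranslated end is not stated.

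RNA of the choroid plexus genes was present in every pool. A probe counts as well above background when the scanner software finds its signal above that of the empty surroundings, and the brightest probe of each of the 8 genes was so in all 16 channels of the 8 arrays. The brightest probe stands for its gene in all counts. The second probe of *Kl* was well above background in 8 of 16 channels and the second probe of *Enpp2* in none, while the second probes of *Clic6* and *Folr1* were in all 16. Of the 2 probes with the older name of *Slc4a5*, 1 was well above background in all 16 channels and the other in none. Of 30 further choroid plexus genes with a value, of 32 listed, 25 had a probe well above background in all channels. Markers of the pineal gland and subcommissural organ, which lie next to the ventricles, were low: 0 of 5 were well above background in all channels, and *Crx* and *Gngt1* were in none. Markers of ependyma (10 of 10), of meningeal and perivascular fibroblasts (11 of 11), of oligodendrocytes (9 of 9) and of endothelium (6 of 6) were all well above background in every channel.

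One array stood apart from the rest and touches the choroid plexus genes at 6 h. Each comparison of PACAP38 with saline has 2 arrays with the same RNA and the dyes exchanged, so both should give the same level of a probe. The level is the log2 signal of a channel relative to the 75th percentile of that channel. On the sham 6 h array with PACAP38 in Cy3, 10.7% of spots were marked as outliers, against 0.323% to 3.09% on the other 7 arrays. The levels of its pair of arrays differed with an SD of 1.20 over 17642 probes well above background in all channels, against 0.24, 0.21 and 0.14 in PMCAO 6 h, sham 24 h and PMCAO 24 h. In sham 6 h this difference followed the bases of the probe, with r = -0.63 across probes, and its median fell from 1.86 for probes with up to 35% G and C to -0.56 for those above 55%. The correlation was -0.57 in PMCAO 6 h, where the differences were small, and -0.03 and -0.01 at 24 h.

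The choroid plexus probes were shifted by different amounts. On that array the level of *Aqp1* was 2.81 higher than on its dye exchange and that of *Otx2* 2.88 higher, that of *F5* was 1.06 higher, and those of *Kl* and *Folr1* were lower, with differences of -0.86 and -1.07, and the second probe of *Clic6* differed by 0.0150. The bright spots of *Ttr*, *Clic6* and *Enpp2* were marked as outliers there and have no value from that array, and the *Ttr* spot was also marked on the PMCAO 6 h array with PACAP38 in Cy3. A ratio of PACAP38 over saline compares 2 channels of 1 array, whereas PMCAO over sham compares 2 arrays, so the values of PMCAO over sham at 6 h are given with and without the array that stood apart. Its part in other results at 6 h was not tested.

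**Figure D1:**
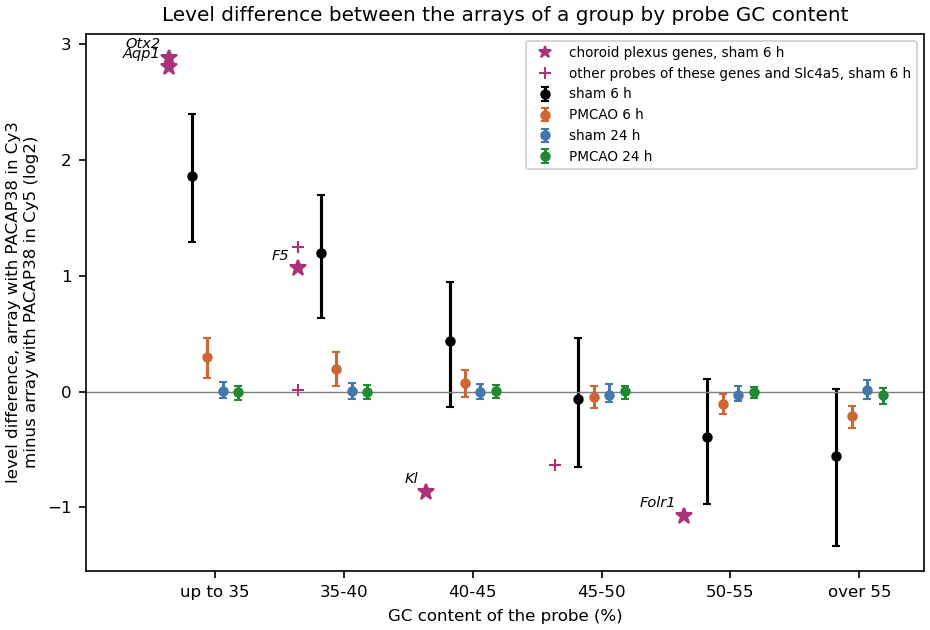
Level on the array with PACAP38 in Cy3 minus level on the array with PACAP38 in Cy5 (log2) by the percent of G and C of the probe, as the median (points) and quartiles (bars) of probes well above background in all channels in each of the 4 comparisons, with the choroid plexus probes of sham 6 h marked by stars and crosses. *Aqp1* (2.81) and *Otx2* (2.88) lie above the upper quartile of sham 6 h in their class, *Kl* (-0.86) and *Folr1* (-1.07) below the lower quartile, and the medians at 24 h stay near 0.

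The levels of the choroid plexus genes at 24 h were mostly below those at 6 h, in all groups together. Leaving out the array that stood apart, the median level was lower at 24 h for 7 of the 8 genes, and 68.4% of all 17642 probes were lower too, with a median difference of -0.19. *Ttr* had signals of 2485 to 5144 at 6 h in 4 channels and of 1714 to 3293 at 24 h in 8 channels. In levels that is 1.71 to 2.72 against 0.83 to 1.69, with no overlap and a median difference of -1.03. *Folr1* was also without overlap, at 0.71 to 1.25 at 6 h and 0.02 to 0.40 at 24 h, a median difference of -0.70. As a fold of these medians, transthyretin RNA at 24 h was 0.489 times and folate receptor RNA 0.617 times the level at 6 h. *Clic6* (-0.60), *Kl* (-0.46), *Enpp2* (-0.43), *Otx2* (-0.28) and *F5* (-0.18) were lower in the median with ranges that touched or overlapped, and *Aqp1* was not (0.06). All arrays of one time point were on one slide and were read with one version of the software, so time and slide cannot be told apart, and no test was made of these levels.

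**Figure D2:**
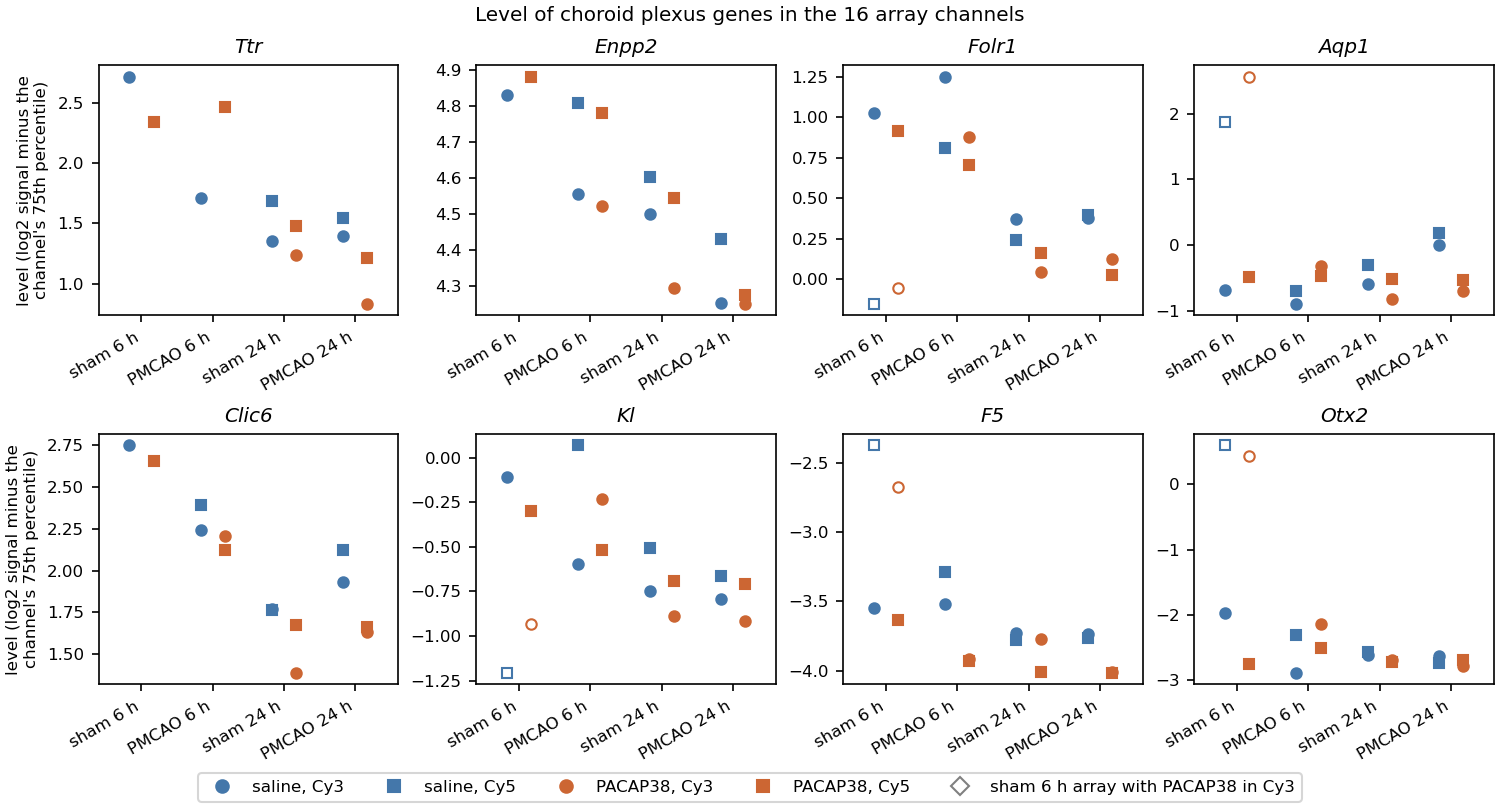
Level of each choroid plexus gene (log2 signal of the channel over its 75th percentile) in every channel, by surgery, injection and time; hollow points come from the sham 6 h array with PACAP38 in Cy3. Hollow points of *Aqp1* and *Otx2* lie far above the rest, and the highest *Aqp1* levels at 24 h are those of PMCAO with saline.

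PACAP38 against saline asks what the peptide changed in the same surgery at the same time. A gene was called up above 1.5-fold and down below 0.75-fold, the thresholds of the study, and with 1 pool per group no test within a comparison is possible. Few choroid plexus genes passed these limits, and at 24 h all 8 were below 0 on the log2 scale in sham as well as in PMCAO. In sham 6 h 0 genes were up and 1 was down, with 3.65% of all probes up and 7.19% down. In PMCAO 6 h 1 was up and 1 down, against 5.36% and 6.79% of all probes. In sham 24 h none was past a limit, with 1.75% of probes up and 3.87% down, and in PMCAO 24 h 0 were up and 2 down, with 2.99% of probes up and 8.18% down. Counts this small out of 8 genes cannot be told from the shares of all probes.

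The log2 changes of the 8 genes had medians of -0.05 in sham 6 h, -0.08 in PMCAO 6 h, -0.16 in sham 24 h and -0.27 in PMCAO 24 h, where the median of all probes was 0 in each. With single arrays the median was -0.19 to 0.14 in PMCAO 6 h and -0.33 to -0.0367 in sham 24 h. At 6 h, 3 genes were above 0 and 5 below in either surgery. At 24 h the genes ranged from -0.24 to -0.12 in sham and from -0.70 to -0.03 in PMCAO. Both arrays of a comparison gave a negative value for 3 genes in sham 24 h and for 6 in PMCAO 24 h. On the single arrays of sham 24 h, 4 of the 8 were below 0 with PACAP38 in Cy5 and 7 with PACAP38 in Cy3, and in PMCAO 24 h these numbers were 6 and 8. Of all probes well above background in every channel, 50.2%, 50.5%, 45.5% and 38.4% were below 0 in these 4 comparisons. At 24 h the choroid plexus genes were thus slightly lower in the PACAP38 pools of both surgeries, and 6 of the 8 in PMCAO and all 8 in sham lay within the limits.

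*Aqp1* had the largest change at 24 h. Its signals in PMCAO 24 h were 970 and 1082 with saline (Cy3 and Cy5) and 591 and 671 with PACAP38, and in sham 24 h they were 661 and 827 with saline and 580 and 685 with PACAP38. The 2 saline channels of PMCAO were the highest of the 8 channels at 24 h, and the 2 PACAP38 channels of PMCAO lay within the range of sham. In log2 ratios, PACAP38 over saline was -0.53 and -0.87 on the 2 arrays of PMCAO 24 h, a mean of -0.70 or 0.615-fold, below the limit on both arrays. In sham 24 h the arrays gave 0.05 and -0.51, which differ in sign. At 6 h the water channel was higher with PACAP38 on all 4 arrays, with 0.20 and 0.70 in sham (1.36-fold), the second value from the array that stood apart, and 0.41 and 0.37 in PMCAO (1.31-fold), below the limit for a call. Over the 4 pairs of pools, the change at 24 h minus that at 6 h was -0.88 (SE 0.21), with an adjusted p of 0.886 by limma, and -0.76 without the array that stood apart (adjusted p = 0.915 by limma), so it did not pass the test over all probes.

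*Ttr* was called in PMCAO at both times, in opposite directions. In PMCAO 24 h its signals were 2545 and 2762 with saline and 1714 and 2254 with PACAP38, log2 ratios of -0.17 and -0.69 and a mean of 0.741-fold. The 2 PACAP38 channels were the lowest of the 4. In PMCAO 6 h the only unmarked array gave a signal of 2485 with saline and 4167 with PACAP38, a log2 ratio of 0.75 or 1.68-fold. The dye-exchanged array, whose *Ttr* spot was marked as an outlier, gave -0.44, and with both spots kept the mean was 0.15. The call of transthyretin as up at 6 h therefore rests on 1 array. In sham the log2 ratio was -0.38 at 6 h from 1 array, and 0.12 and -0.44 at 24 h.

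*Otx2* and *F5* each passed the lower limit once, and at low signal. The *Otx2* probe is spotted 10 times on each array, and in sham 6 h its log2 ratios were -0.79 and -0.16, a mean of 0.720-fold. The second value comes from the array that stood apart, and the other array alone was past the limit. In PMCAO 6 h they were 0.37 and 0.16, and at 24 h they lay between -0.12 and -0.03 on the 4 arrays. The homeobox gene thus differed least of the 8 from saline in PMCAO 24 h. *F5* had signals of 66 and 86 with saline and 56 and 49 with PACAP38 in PMCAO 6 h, log2 ratios of -0.42 and -0.63 and a mean of 0.696-fold, below the limit on both arrays. After normexp background correction and loess the mean of *F5* was -0.05 and that of *Otx2* in sham 6 h was -0.23, and neither was then called. Coagulation factor V was below 0 in 7 of its 8 array values.

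*Clic6* and *Folr1* moved less but more evenly, by their brightest probes. *Clic6* was below 0 on all 7 arrays with a value, with means of -0.10 (1 array), -0.16, -0.24 and -0.37 in sham 6 h, PMCAO 6 h, sham 24 h and PMCAO 24 h, and its lowest mean is 0.775-fold. Its second probe was below 0 in the mean of all 4 comparisons, from -0.35 to -0.12, but at 24 h its arrays differed in sign. They gave -0.62 and 0.23 in sham 24 h and -0.66 and 0.04 in PMCAO 24 h. *Folr1* was at -0.01, -0.24, -0.20 and -0.30, below 0 on all 4 arrays at 24 h and of opposite sign between arrays at 6 h. The second probe of *Folr1* gave means of -0.24, -0.36, 0.02 and -0.32, with -0.49 and 0.53 on the arrays of sham 24 h. *Kl* and *Enpp2* stayed within -0.16 and 0.05 in every mean, and their arrays disagreed in sign wherever both had a value. The probe with the older name of *Slc4a5* gave -0.28, 0.07, -0.17 and -0.11.

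**Figure D3:**
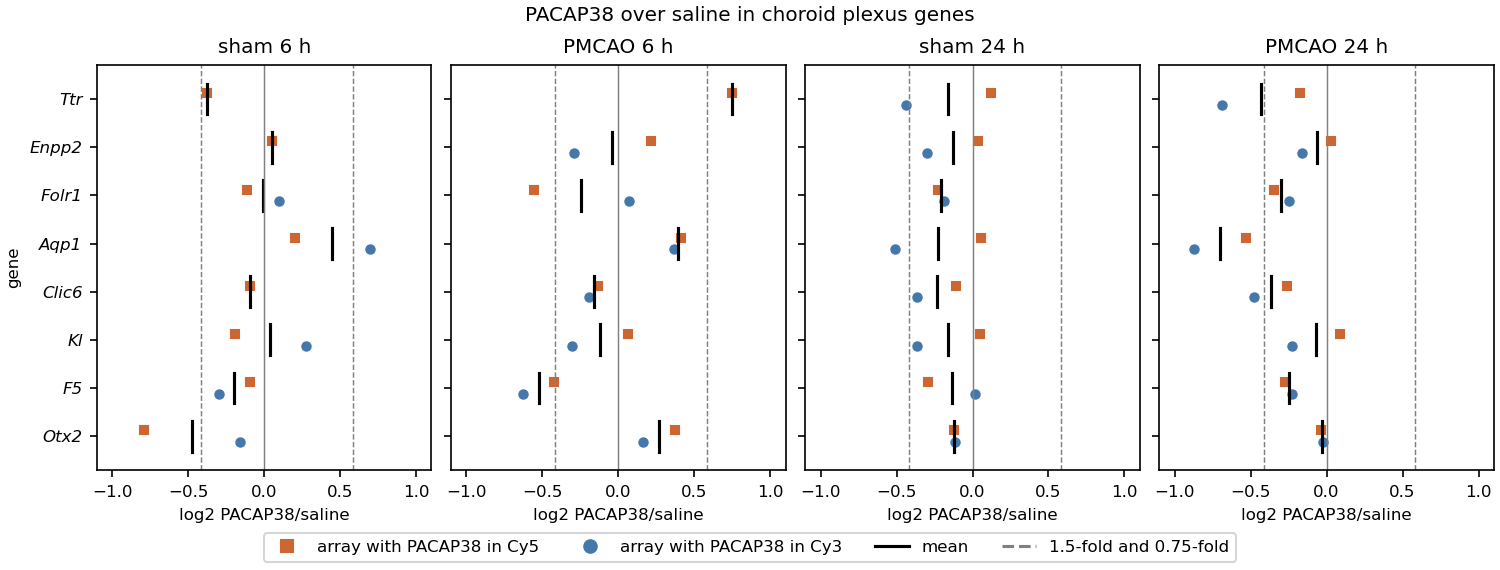
Log2 ratio of PACAP38 over saline of each choroid plexus gene in the 4 comparisons, one point per array and a bar for their mean, with lines at 1.5-fold and 0.75-fold. At 24 h the means of all 8 genes lie below 0, and *Aqp1* in PMCAO 24 h (-0.70) is lowest.

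Over the 4 pairs of pools, limma's test of the mean PACAP38 effect called 0 probes at an adjusted p under 0.05, while 1222 were up and 815 down of 40668 at an unadjusted p under 0.05. Of the choroid plexus genes, by their brightest probes, *Clic6* at -0.22 (SE 0.05), *F5* at -0.28 (SE 0.08) and *Folr1* at -0.19 (SE 0.06) were below 0 in all 4 pairs of pools. Each had an adjusted p of 0.872 by limma. Without the array that stood apart limma also called 0 probes, with 1203 up and 706 down of 40423 at an unadjusted p under 0.05, and these genes were at -0.22, -0.25 and -0.21. The test of PMCAO minus sham called 0 probes as well, with 1531 up and 965 down of 40668 at an unadjusted p under 0.05, and so did that of 24 h minus 6 h, with 1116 up and 948 down. *Otx2* had a difference of 0.41 between PMCAO and sham (SE 0.20, adjusted p = 0.790 by limma), and 0.57 without the array that stood apart.

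The other choroid plexus genes were also more often below 0 than above it, with smaller sizes at 24 h. Of the 30 measured, 19, 20, 23 and 18 were below 0 in sham 6 h, PMCAO 6 h, sham 24 h and PMCAO 24 h, with medians of -0.10, -0.10, -0.11 and -0.05. They were up and down in 0 and 5, 0 and 3, 0 and 0, and 1 and 4. Of all probes, 3.65% and 7.19%, 5.36% and 6.79%, 1.75% and 3.87%, and 2.99% and 8.18% were up and down in these comparisons. Among the 25 well above background throughout, the lowest means over the 4 comparisons were those of *Krt18* (-0.34) and *Krt8* (-0.32), keratins of simple epithelia, *Steap1* (-0.29), a metalloreductase, *Car12* (-0.29), a carbonic anhydrase, and *Wfdc2* (-0.27). The highest were *Slco1a5* (0.14), an organic anion transporter, *Htr2c* (0.07), a serotonin receptor, *Cab39l* (0.04), *Spint2* (0.04), a protease inhibitor, and *Kcne2* (0.03), a potassium channel subunit.

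Markers of other cells were lower in PMCAO 24 h as well. Of 6 endothelial genes 4 were down, with a median of -0.45, of 9 oligodendrocyte genes 3 were down (-0.35), of 11 fibroblast genes 4 were down (-0.23) and of 10 ependymal genes 1 was down (-0.19). Of 5 erythrocyte genes 1 was down (-0.31), and of 8 neuronal and astrocyte genes 0 were down (-0.09), with none up in any of these lists. Among all probes 2.99% were up and 8.18% down in this comparison. The summed level of a list is the sum of its genes' signals over the 75th percentile of their channel. For ependyma it was 7.50 to 7.77 with saline and 6.29 to 6.33 with PACAP38, and for fibroblasts 94.5 to 114 and 89.9 to 102. For endothelium it was 26.2 to 30.9 and 20.1 to 21.9, and for oligodendrocytes 213 to 214 and 151 to 168. Those of erythrocytes were 72.5 to 79.6 and 58.3 to 60.9, and for the 8 choroid plexus genes the sums were 28.6 to 32.2 and 26.3 to 27.4. The sums are of linear signals, so bright genes weigh most. Among the 8 genes the brightest was *Enpp2*, with a mean signal of 20266, before *Clic6* with 4085, and among the fibroblast genes *Ptgds* had 69013. In sham 24 h the medians were -0.07 for ependyma, -0.09 for fibroblasts, -0.02 for oligodendrocytes, 0.02 for endothelium, 0.02 for neurons and astrocytes and -0.20 for erythrocytes, against -0.16 for the 8 choroid plexus genes. The part of other cells in the values of *Aqp1* and *Enpp2* was not tested.

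PMCAO against sham asks what the occlusion changed under the same injection. At 24 h, where no array stood apart, no choroid plexus gene passed a limit. With saline 0 were up and 0 down, against 9.56% and 13.3% of all probes, and with PACAP38 0 were up and 0 down, against 6.39% and 8.19%. The medians of the 8 genes were -0.02 and -0.03, and those of all probes 0.02 and 0.03. *Aqp1* was nearest to a limit, at 0.59 in Cy3 and 0.49 in Cy5 with saline, a mean of 0.54 or 1.46-fold. With PACAP38 its difference was 0.12 and -0.01, a mean of 0.06. The water channel was thus higher after occlusion in the saline pools in both dyes, and near sham in the PACAP38 pools. This is the same set of 8 channels as in the PACAP38 comparison, so the 2 differences are not independent.

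The other genes were close to sham at 24 h. *Clic6* was at 0.26 with saline and 0.12 with PACAP38, *Enpp2* at -0.21 and -0.16, and *Ttr* at -0.05 and -0.34. *Ttr* with PACAP38 was -0.41 in Cy3 and -0.27 in Cy5. *Kl*, *Folr1*, *Otx2* and *F5* lay between -0.12 and 0.08 in both injections.

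At 6 h several choroid plexus genes were below the limit after PMCAO, and which ones depended on the array that stood apart. With all arrays and saline 1 gene was up and 5 were down, against 18.2% and 33.9% of all probes, and with PACAP38 0 were up and 4 down, against 16% and 28.8%. Without that array 0 were up and 4 down with saline, against 17.2% and 16.9% of probes, and 0 up and 1 down with PACAP38, against 17.9% and 10.2%. The medians moved from -0.47 to -0.38 with saline and from -0.32 to -0.15 with PACAP38. *Aqp1* shows the size of this: in Cy3 its difference with saline was -0.21 and in Cy5, which uses that array, it was -2.57. With PACAP38 the Cy3 difference, which uses that array, was -2.89 and the Cy5 difference 0.01. The remaining values are -0.21 and 0.01, and neither is past a limit.

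*Otx2* and *Ttr* were the lowest after PMCAO at 6 h with saline when the array was left out. *Otx2* had signals of 204 in sham and 103 in PMCAO in Cy3, a log2 difference of -0.92 or 0.529-fold, and -2.91 in the Cy5 channels that use the array left out. With PACAP38 it was 0.25 without that array, so the homeobox gene was below the limit in the saline pools alone, and the signals are from 1 dye. *Ttr* had signals of 5144 in sham and 2485 in PMCAO with saline, a difference of -1.01 or 0.498-fold in the only dye with a value, and 0.13 with PACAP38. The *Ttr* channel of 2485 also gives its log2 ratio of 0.75 for PACAP38 over saline in PMCAO 6 h. Likewise, the *Otx2* channel of 204 enters its -0.79 for PACAP38 over saline in sham 6 h, so these results are not independent. *Clic6* was below the limit in both injections, at -0.50 with saline and -0.53 with PACAP38, again from 1 dye each. After subtracting the median difference of probes of the same G and C content, *Clic6* was within the limits with saline, at -0.15 or 0.903-fold. With PACAP38 it was then -0.51, still below the limit. Its second probe, well above background in all 16 channels, was within the limits at 0.22 and -0.0140. *Kl* was -0.49 with saline and -0.22 with PACAP38 without that array, whereas with it the means were 0.39 and 0.24.

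*Folr1*, *F5* and *Enpp2* were not past a limit at 6 h without that array. *Folr1* was 0.23 and -0.21 with saline and PACAP38, *F5* was 0.02 and -0.29, and *Enpp2* was -0.28 and -0.10. With all arrays *Folr1* was up with saline (0.59) and *F5* was down in both injections (-0.45 and -0.76). The probe with the older name of *Slc4a5* was at -0.39 and -0.25 at 6 h without that array and at 0.15 and 0.19 at 24 h.

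**Figure D4:**
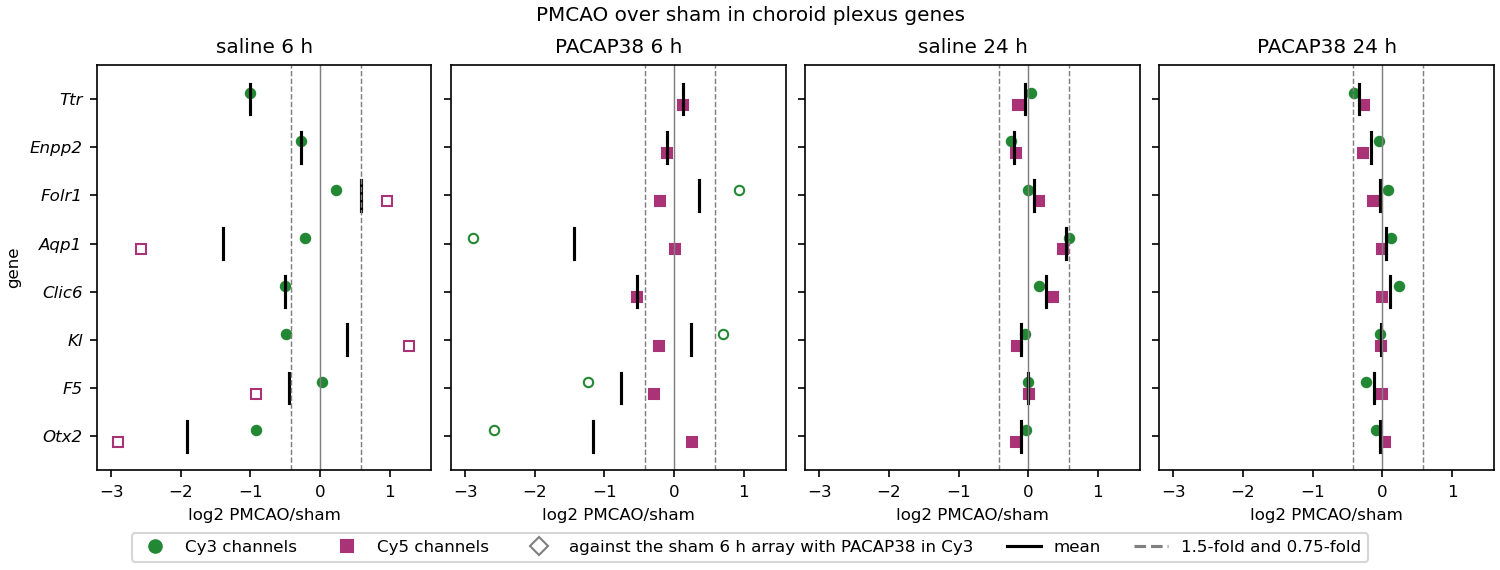
Log2 difference of PMCAO over sham of each choroid plexus gene for saline and PACAP38 at 6 h and 24 h, one point per dye, hollow where the sham channel is on the array that stood apart, with lines at 1.5-fold and 0.75-fold. At 6 h the hollow points of *Aqp1* and *Otx2* lie below -2.5, and at 24 h the means of all genes lie within the limits.

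Tests over the 4 pairs of pools depend on the same array. For the mean of PMCAO over sham limma called 0 probes, with 1516 up and 2181 down of 40508 at an unadjusted p under 0.05. For 24 h minus 6 h limma called 6568 probes up (16.2%) and 3591 down (8.86%), among them *Aqp1* at 1.71 (SE 0.22, adjusted p = 0.0151), *Otx2* at 1.47 (SE 0.29, adjusted p = 0.0290) and *Clic6* at 0.71 (SE 0.15, adjusted p = 0.0349). After normexp, loess and Aquantile, which evens out average intensities between arrays, the calls were 6151 up and 6234 down. With a correction for the G and C of probes they were 2438 up and 6544 down. Without the array that stood apart 0 probes were called, with 2390 up and 4618 down of 40214 at an unadjusted p under 0.05. *Aqp1* was then 0.40 (adjusted p = 0.453 by limma), *Otx2* 0.27 (adjusted p = 0.777 by limma) and *Clic6* 0.71 (adjusted p = 0.186 by limma). With that correction, which subtracts the median difference of probes of the same G and C content, in place of leaving out the array, *Aqp1* was 0.51 and *Otx2* 0.65, with adjusted p of 0.192 and 0.105 by limma. *Clic6* kept its size because its bright spot has no value on that array. The second probe of *Clic6* was not called, at 0.0476 with all arrays (adjusted p = 0.852 by limma). The saline and PACAP38 differences of one time come from the same 4 arrays and share their spots, so what an array adds to both is not in the spread between them. Time and slide cannot be told apart here either.

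Of the 30 further choroid plexus genes, 6 were up and 3 down at 24 h after PMCAO with saline, with a median of -0.04, and 2 were up and 3 down with PACAP38, with a median of 0.02. The 2 genes up with PACAP38 were dim, with mean signals of 28 and 30, and were not well above background in every channel. Both were also up with saline. Among all probes 9.56% were up and 13.3% down with saline, and 6.39% and 8.19% with PACAP38. Averaged over both injections at 24 h, a mean chosen after seeing the data, the lowest of the 25 well above background throughout were *Sostdc1* (-1.003), an inhibitor of BMP and Wnt signals, *Kcne2* (-0.55), *Car12* (-0.47), *Rdh5* (-0.34), a retinol dehydrogenase, and *Msx1* (-0.32), a homeobox factor. The highest were *Lbp* (0.66), which binds lipopolysaccharide, *Steap1* (0.47), *Ace* (0.44), the angiotensin-converting enzyme, *Krt18* (0.43) and *Spint2* (0.38). Over all 4 comparisons, the array that stood apart included, *Sostdc1* was again the lowest of these 25 (-1.09), before *Trpm3* (-0.67), *Igf2* (-0.67), *Kcne2* (-0.65) and *Ecrg4* (-0.65). *Lbp* was again the highest of the 25 (0.61), before *Krt18* (0.53), *Calml4* (0.42), *Igfbp2* (0.39) and *Ace* (0.27). At 24 h *Sostdc1* was past the lower limit in both injections, at -1.13 with saline and -0.88 with PACAP38, and *Lbp* was past the upper limit with saline (0.77) but not with PACAP38 (0.54).

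Genes were ranked by how closely their level followed the mean of the choroid plexus genes over the 8 pools, centred within each time. With all arrays, where 5 members have values throughout, the 10 closest were *Ywhae*, *Freq*, *Sytl4*, *Rbp4*, *Tmem100*, *Lum*, *Ltbp3*, *Resf1*, *Pex11g* and *2210016F16Rik*, with Pearson correlations of 0.98 to 1.00. The members themselves did not move together there: *Aqp1*, *Otx2* and *F5* correlated with their mean at 0.93, 0.91 and 0.87, and *Kl* and *Folr1* at -0.70 and -0.57. Without the array that stood apart, where 7 members enter the mean, the 10 closest were *Ywhae* (0.97), *Slc8b1* (0.95), *Gm938*, *Col1a2*, *Fam114a1*, *Sytl4*, *4933436C20Rik*, *Sfxn2*, *Fmnl3* and *Rcsd1* (0.90). The 7 members then correlated with their mean at 0.45 to 0.87. In both cases the mean includes the gene itself, so part of each member's correlation is built in. Whether the members moved together cannot be read from these correlations. *Ywhae* and *Sytl4* are in both lists. Of the other choroid plexus genes ranked, 4 of 24 were in the top 10% of all probes with all arrays and 8 of 25 without that array, with median correlations of 0.69 and 0.25 against 0.52 and -0.0821 over all probes. The correlation of this likeness with the share of G and C of the probe was -0.58 with all arrays and -0.15 without that array, and these 8 points share arrays and channels.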

How the data were processed

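The 8 arrays are Agilent 2-colour arrays, 2 for each comparison of PACAP38 with saline, and their dyes are exchanged. In the labels each array of a comparison is a pool of its own, whereas by the study's methods one RNA was labeled with either dye, so they were taken as 1 replicate. The files are scanner output that the authors made with Feature Extraction (by the file headers 9.5.1.1 for 6 h and 9.5.3.1 for 24 h, and by the submitters' processing notes 9.5.3.1 throughout). Its deposited log10 ratio sets Cy5 against Cy3, both corrected by the software for background, for trends over the slide and for dye bias. Deposited intensity values are, per channel, the raw mean, the local background and the corrected signal, with flags for outlier, saturated and well-above-background spots. A further deposited table holds the linear ratio (Cy5 over Cy3) of each spot, within 0.005 of that from the corrected signals. For arrays with PACAP38 in Cy3 its deposited values are scores, the ratio with a minus sign before it. For 3 arrays a second copy was present, with 45018 of 45018 rows identical.

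The log10 ratios were converted to log2, turned on arrays with PACAP38 in Cy3, averaged over the spots of a probe without marked spots, and averaged over arrays with a value. PMCAO over sham is the difference of same-dye levels, each the log2 processed signal minus the 75th percentile of its channel, averaged over dyes. The arrays' number limits the precision. For values from 4 pairs of pools limma 3.58.1 (R 4.3.3) was used with Benjamini-Hochberg adjustment over all probes at 0.05, for mean PMCAO over sham with the time point as a random block (correlation 0.671), and tested on simulated data. These p-values measure the spread between pairs of pools. For PMCAO over sham the saline and PACAP38 pairs of a time share their arrays. In the test of 24 h minus 6 h, which has no block, an array difference common to both is not in that spread. Tables and plots were made with Python 3.11.15, numpy 2.4.6, pandas 2.3.3 and matplotlib 3.10.9. RefSeq symbols were found for 22951 of 41174 probes.

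The members, gene lists, tests and the array left out were chosen with earlier results of these data known. The text names every member, the 5 highest and the 5 lowest further choroid plexus genes of each kind of comparison, and the 10 genes most like the members' mean. Genes of the other cell lists were named only where a marker was in no channel. Alternatives were normexp (offset 50) with loess, the deposited ratio table, each array or dye alone, marked spots kept, dim probes left out, other thresholds, other scalings, the mean of a gene's probes, and, for limma, an intensity trend, no block and leaving out each pair. Leaving out 1 sham array and the correction for G and C were added after seeing the data. A promoter or protein sequence was not used here.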

Additional observations from a re-analysis of the deposited data

Results flagged for a closer look

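Effects under the same contrast that differed between groups were looked for among the choroid plexus genes, first as values with both arrays or dyes on one side of 0 in one group and on the other side in another group, which were not tested. *Aqp1* with PACAP38 over saline was above 0 on both arrays of PMCAO 6 h and below 0 on both arrays of PMCAO 24 h, a difference of -1.09. *Otx2* with PACAP38 over saline was below 0 in sham 6 h and above 0 in PMCAO 6 h on both arrays, a difference of 0.74, and below 0 again in PMCAO 24 h, a difference of -0.30 from PMCAO 6 h. *Aqp1* with PMCAO over sham and saline was below 0 at 6 h and above 0 at 24 h in both dyes, a difference of 1.93. The Cy5 value of that difference at 6 h comes from the array that stood apart.

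By limma's test of 24 h minus 6 h in PMCAO over sham, *Aqp1* (1.71), *Otx2* (1.47) and *Clic6* (0.71) passed an adjusted p of 0.05. None of the 3 passed it without the array that stood apart, where 0 of 40214 probes passed.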

How the results depend on the processing

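No paired analysis was possible because the replicate numbers only mark the dye orientation of the same pooled RNA. With PACAP38 over saline, the number of choroid plexus genes past a limit was 1 in sham 6 h and became 0 after normexp and loess, with the limit asked on both arrays, or with 1.5-fold either way. In PMCAO 6 h it was 2 and became 1 under these 3 alternatives and with marked spots kept. There *Ttr*, 1 of the genes called, has a value on 1 array only, so it could not pass on both. In PMCAO 24 h the number was 2 and became 1 with the limit on both arrays or with 1.5-fold either way. With single arrays the number was 1 to 3 in PMCAO 6 h, 0 to 2 in sham 24 h and 1 to 3 in PMCAO 24 h. The median was -0.10 to 0.10 with single arrays in sham 6 h, -0.19 to 0.14 in PMCAO 6 h, -0.33 to -0.0367 in sham 24 h and -0.24 to -0.22 in PMCAO 24 h, and -0.23 after normexp and loess in PMCAO 24 h. In sham 6 h the 0.10 is that of the array that stood apart, where 5 genes have a value.

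With PMCAO over sham at 6 h and saline, the number past a limit was 6 and became 1 when both dyes had to pass. It became 3 with the correction for the G and C of probes and 3 with this correction and without the array that stood apart. With PACAP38 the number was 4 and became 0, 1 and 1, and 1 without that array alone. *Ttr*, *Clic6* and *Enpp2* have a value in 1 dye only at 6 h, so they could not pass in both dyes. *Ttr* with saline and *Clic6* in both injections were among the genes called. With single dyes the median was -0.91 to -0.38 with saline and -1.24 to -0.15 with PACAP38. The -0.91 and -1.24 use the array that stood apart, where 5 genes have a value, whereas -0.38 and -0.15 are medians of 8 genes. With single dyes the number past a limit with PACAP38 was 1 to 5, and the corrected median with saline was -0.0869. Some values changed sign. With saline, *F5* was -0.91 to 0.0241 with single dyes, 0.0111 with the correction, and 0.12 with the correction and without that array, where *Aqp1* was 0.14 and *Folr1* -0.14. With PACAP38 and without that array, *Aqp1* was 0.0128 and *Otx2* 0.25, or 0.27 with the correction. With single dyes *Aqp1* was -2.89 to 0.0128 and *Otx2* -2.58 to 0.25.

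At 24 h the median with saline was -0.0763 with median scaling, 0.0233 after normexp, loess and Aquantile, 0.0656 with the mean of all probes of a gene and 0.0340 with the correction. The number past a limit was 1 under the last 2 of these and 0 to 1 with single dyes. With PACAP38 the median was -0.0932 with median scaling, -0.0673 after normexp, loess and Aquantile and -0.0593 after quantile normalization. For limma's test of 24 h minus 6 h, the 3 choroid plexus genes called became 6 after normexp, loess and Aquantile. Their number was 0 without that array, 0 with the correction, 0 with both, and 1 to 2 with 1 pair left out. The array left out and the correction were chosen after seeing the data. Over all probes this test called 6568 up and 3591 down, 2811 to 6589 up and 1622 to 3981 down with 1 pair left out, and 16 up and 25 down with the correction and without that array. Mean PMCAO over sham called 0 probes, and 3 up when only probes well above background in all channels were tested. The other counts of choroid plexus genes stayed within 1.5 times, and the other medians moved by less than 1 SD between arrays. This SD is that of the 2 medians from single arrays or dyes, so a median from 1 of them lies mostly within it by construction. For PMCAO over sham at 6 h, 1 of these 2 medians uses the array that stood apart, which makes the SD wide. That the other medians stayed within it therefore shows little about how stable they are. Signals near background, as those of *F5* and *Otx2*, limit what can be seen, and the cause of these dependences was not tested.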
